A study of Mus musculus with 36 samples.

Results

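Insulin-like growth factor 1 and the proteins that carry it in blood were measured here as liver RNA. The set held 9 genes: the ligand Igf1, the acid labile subunit Igfals, and the binding proteins Igfbp1, Igfbp2, Igfbp3, Igfbp4, Igfbp5, Igfbp6 and Igfbp7. They were found by the gene names in the scanner files, where 14 of 56605 probes carried one of these names. Of these 14 probes, 13 were well above background on at least 6 of 36 arrays, and every gene kept at least 1 of them. The 9 genes were read among 23054 genes tested, each by its brightest probe. The mice were 36 males, 11 weeks old, fed a standard rodent diet without restriction and sampled at zeitgeber time (ZT) 8, 12 or 16 hours, where ZT12 is lights off. The knockouts (IRLKO) carried a floxed insulin receptor gene (Insr, IRlox/lox, exon 4) and a tamoxifen-inducible Cre recombinase driven by the transthyretin promoter (TTR-CreTam), which is active in hepatocytes. The controls were IRLWT, and whether they carried Cre, and when tamoxifen was given, was not given in the sources used here. Each genotype had 6 mice at each time, so there were 6 groups, and each array held the RNA of 1 mouse, per the labels.

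IGF-1 is made mostly by hepatocytes under the control of growth hormone, and it promotes growth through the IGF-1 receptor. In blood most of it travels in a complex with IGFBP-3 or IGFBP-5 and the acid labile subunit, which keeps it in the circulation. IGFBP-1 and IGFBP-2 form smaller complexes, and insulin is known to lower Igfbp1 transcription in liver through FoxO transcription factors. IGFBP-4 and IGFBP-6 also bind IGFs, IGFBP-6 with a preference for IGF-2, while IGFBP-7 binds IGFs weakly and is made by endothelial and stromal cells.

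The sequences below are the probes that gave the main results, each 60 bases long on the array and shown 5′ to 3′. For probes that may lie outside the coding region only the first 30 bases are given. Positions are those of the array's design on mm9, for which no annotation was used here, so exon or untranslated region is not stated. The Igfals probe lies at chr17:25018251-25018310 on the + strand, the Igfbp2 probe at chr1:72898677-72898736 (+), the Igfbp1 probe at chr11:7102442-7102501 (+) and the brightest Igf1 probe at chr10:87393516-87393575 (+).

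Igfals A_51_P277088: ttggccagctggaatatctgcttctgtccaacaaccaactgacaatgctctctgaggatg

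Igfbp2 A_55_P2056729: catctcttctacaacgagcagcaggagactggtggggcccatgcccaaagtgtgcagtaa

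Igfbp1 A_51_P447545, first 30 bases: aaagttccgatgctgattgtgtaaccaaag

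Igf1 A_51_P147942, first 30 bases: cgcaggatcctttgctgcttgagcaacctg

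The sequence upstream of the Igfbp1 start site is shown because this gene had the largest difference between genotypes among the 9, and because it held known FoxO and insulin response letters. It covers 250 bases at chr11:7197537-7197786 (+ strand, GRCm38.p6, from RefSeq), and ends at the base before the start site. The capitals mark CAAAACA at -108 to -102 and TATTTTG, the reverse complement of CAAAATA, at -97 to -91.

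Igfbp1 upstream: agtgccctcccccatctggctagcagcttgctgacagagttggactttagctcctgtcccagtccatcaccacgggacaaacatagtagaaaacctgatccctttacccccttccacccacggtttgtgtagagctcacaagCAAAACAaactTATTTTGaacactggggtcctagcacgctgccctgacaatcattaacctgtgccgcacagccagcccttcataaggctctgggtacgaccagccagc

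The sequence upstream of the second of 3 annotated Igfals starts is shown for comparison, at chr17:24877981-24878230 (+ strand, GRCm38.p6, from RefSeq). Its capitals mark TGTTTAC, the reverse complement of the forkhead letters GTAAACA, at -242 to -236, and TTCCTAGAA, a match to the STAT5 letters TTCNNNGAA, at -58 to -50.

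Igfals upstream: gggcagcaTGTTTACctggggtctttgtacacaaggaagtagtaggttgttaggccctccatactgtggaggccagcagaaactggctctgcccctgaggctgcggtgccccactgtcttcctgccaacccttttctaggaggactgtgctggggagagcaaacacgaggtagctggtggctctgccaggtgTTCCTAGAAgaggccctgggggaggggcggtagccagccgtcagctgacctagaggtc

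All 9 genes had RefSeq windows, 12 in all, each reaching from 250 bases before to 50 after a start site, and the 4 motifs named above were searched on both strands. The motif CAAAACA was found in 6.28% of the 32851 windows of all genes and, among the 9 genes, in the Igfbp1 window alone. The same was true of CAAAATA, found in 4.36% of all windows, and 0.472% of windows held both. The forkhead letters were in 3.65% of all windows and, among the 9 genes, in the Igfals window shown. The STAT5 letters were in 8.3% of all windows and, among the 9 genes, in that Igfals window and in the one at the first Igfals start, at -236 to -228. These matches are letters in a window and were not read as sites.

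Levels are given as log2 of the processed signal minus the 75th percentile of its array, so a level of 0 equals that percentile, and levels of different probes are not comparable. Genotypes were compared with limma across all genes, with wash batch in the model and Benjamini-Hochberg adjustment at a threshold of 0.05. No array held a saturated spot, 53.7% to 63.1% of probes were well above background, and arrays correlated with each other at 0.952 to 0.993. Insr RNA in knockouts was 29.3%, 27.2% and 31.8% of the control level at ZT8, ZT12 and ZT16. All 8 hepatocyte markers, albumin among them, were well above background on every array. One array, knockout ZT8 replicate 3, stood apart from its group over all genes, and the genotype differences and list counts at ZT8 are also given without that array.

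The 9 genes split into a group that rose, a group that fell and a group with no change past the test. Igfbp1 and Igfbp2 were higher in knockouts at every time, and Igf1 and Igfals were lower at every time. Igfbp4 was lower at ZT12 and ZT16, and Igfbp3 at ZT8. Igfbp5, Igfbp6 and Igfbp7 passed the test at no time. Of the 9 genes 5 passed at each time, 2 higher and 3 lower, where the share of all genes that passed was 35.4% (ZT8), 42.2% (ZT12) and 39.9% (ZT16). On the log2 scale the median difference of the 9 genes was -0.24, 0.17 and -0.15, beside 0.0070, -0.017 and 0.0029 for all genes. Only Igfals, Igfbp1 and Igfbp2 differed by at least 2-fold. The groups did not overlap for 4 genes at ZT8, where 15.5% of all genes did not overlap, for 3 at ZT12 (21.3%) and for 5 at ZT16 (19.2%). Of all genes that passed, 47.2%, 46.4% and 49.9% were higher in knockouts, and with arrays scaled to their median in place of the 75th percentile these shares were 35.8%, 41.2% and 34.7%.

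**Figure D1:**
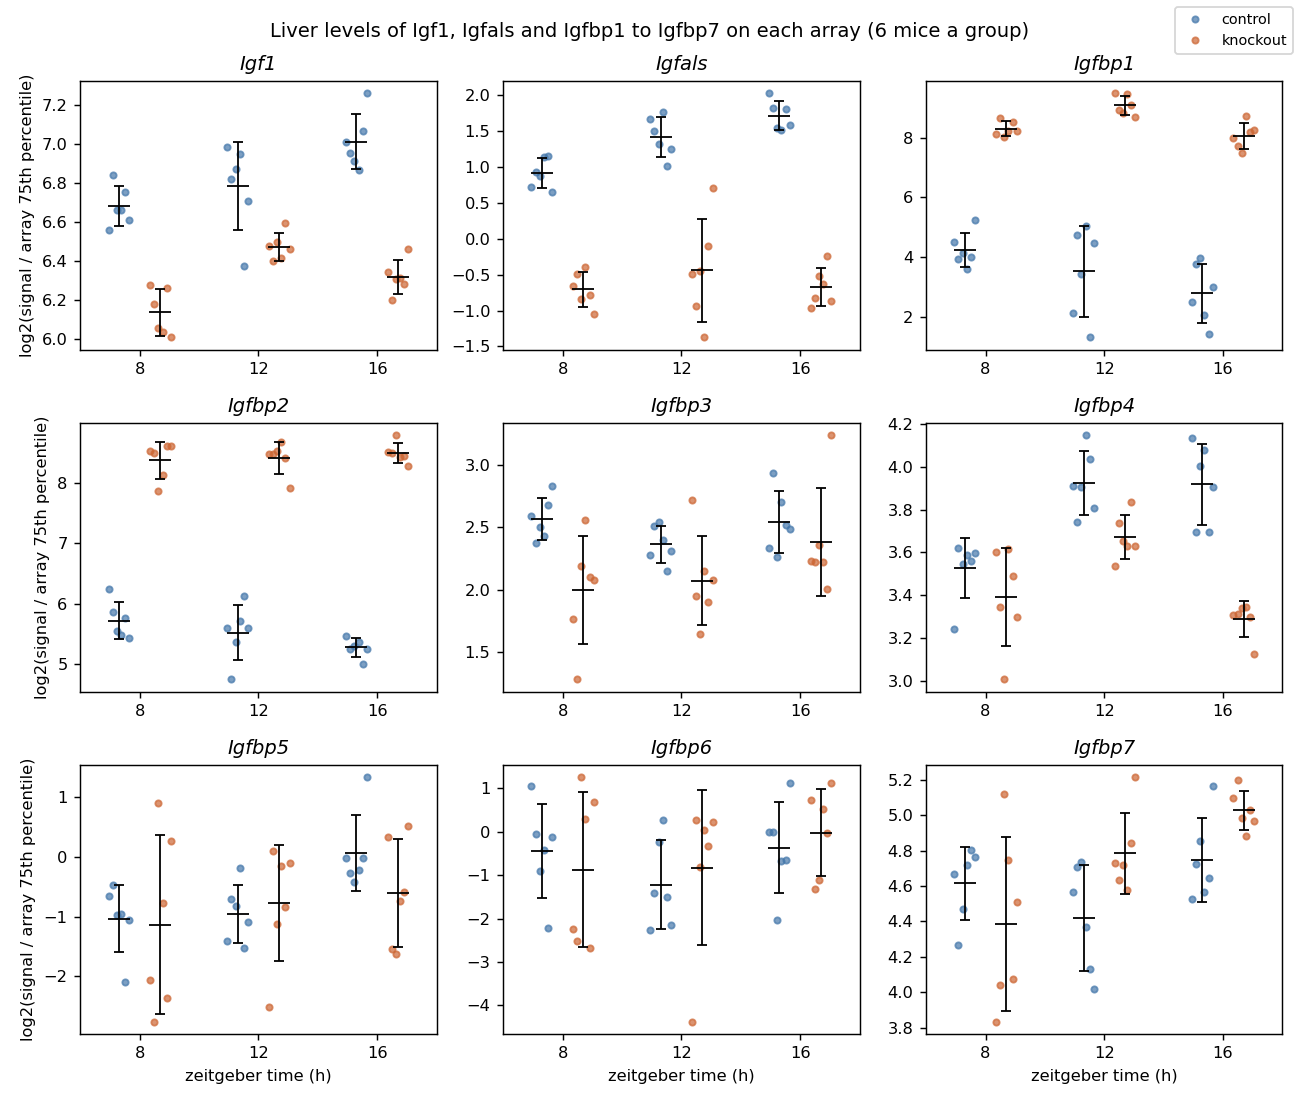
Level of each of the 9 genes on each of the 36 arrays, on the y axis as log2 relative to the array's 75th percentile, against zeitgeber time in hours on the x axis, with 6 control and 6 knockout mice at each time and black bars for each group's mean and SD. Igfbp1 and Igfbp2 sit higher in every knockout than in any control of the same time, Igfals sits lower in every knockout, and the groups of Igfbp5 and Igfbp6 overlap at each time.

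Igf1, the ligand, was lower in the knockouts at all times, by less than 2-fold. At ZT8 the controls had a lowest level of 6.56, a median of 6.66 and a highest of 6.84, and the knockouts 6.01, 6.12 and 6.28. All 6 knockouts were below all 6 controls. At ZT12 the controls had 6.37, 6.85 and 6.98 and the knockouts 6.40, 6.47 and 6.60. Here control replicate 5 was below every knockout, so the groups overlapped, while the other 5 controls, from 6.71 up, lay above all 6 knockouts. At ZT16 the controls had 6.87, 6.98 and 7.26 and the knockouts 6.20, 6.31 and 6.46, again with no overlap. The knockout level was 1.46-fold lower at ZT8 (log2 difference -0.55, SE 0.075, limma adjusted p 1.02e-06), 1.24-fold lower at ZT12 (-0.31, adjusted p 0.00126) and 1.64-fold lower at ZT16 (-0.72, adjusted p 6.39e-09). Within the 3 wash batches, each of which held mice of every group, the difference was negative in all 3 at each time, and ranged from -0.68 to -0.35 at ZT8. These values are those of the brightest Igf1 probe, and the 2 dimmer probes are described further on.

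Igfals, which encodes the acid labile subunit that joins the large IGF complex in blood, fell more than Igf1. At ZT8 the lowest, median and highest control levels were 0.65, 0.90 and 1.15, and the knockout levels -1.05, -0.72 and -0.39. At ZT12 the controls had 1.01, 1.41 and 1.77 and the knockouts -1.37, -0.47 and 0.70. At ZT16 the controls had 1.52, 1.69 and 2.02 and the knockouts -0.96, -0.73 and -0.24. Every knockout lay below every control of its time, and the knockouts spread most at ZT12 (SD 0.71, n = 6, against 0.24 at ZT8 and 0.27 at ZT16). The level was 3.14-fold lower at ZT8 (log2 difference -1.65, SE 0.20, limma adjusted p 1.9e-07), 3.53-fold lower at ZT12 (-1.82, adjusted p 2.41e-08) and 5.23-fold lower at ZT16 (-2.39, adjusted p 1.24e-10). In the wash batches the ZT12 difference ranged from -2.19 to -0.67, a wider range than at ZT8 (-1.71 to -1.58). The -0.67 came from wash batch 3, which held 1 ZT12 knockout, replicate 6, the highest of its group (0.70).

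Igfbp1, the binding protein whose liver transcription insulin is known to lower, had the largest difference of the 9. At ZT8 the lowest, median and highest control levels were 3.59, 4.08 and 5.25, and the knockout levels 8.04, 8.24 and 8.68. At ZT12 the controls had 1.30, 3.96 and 5.03 and the knockouts 8.70, 9.02 and 9.50. At ZT16 the controls had 1.41, 2.73 and 3.98 and the knockouts 7.48, 8.10 and 8.73. The lowest knockout was above the highest control at each time. Controls varied more than knockouts, with an SD of 1.52 against 0.33 at ZT12 and 1.00 against 0.44 at ZT16 (n = 6 each). The knockout level was 16.6-fold higher at ZT8 (95% interval 8.48 to 32.3, limma adjusted p 6.46e-08), 48.5-fold at ZT12 (24.8 to 94.6, adjusted p 1.07e-10) and 39.5-fold at ZT16 (20.2 to 77.1, adjusted p 2.7e-10). These 3 intervals overlap.

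Igfbp2, an IGF binding protein abundant in serum, had a smaller difference with less spread. At ZT8 the lowest, median and highest control levels were 5.44, 5.66 and 6.24, and the knockout levels 7.86, 8.51 and 8.61. At ZT12 the controls had 4.75, 5.60 and 6.13 and the knockouts 7.90, 8.47 and 8.67. At ZT16 the controls had 5.02, 5.29 and 5.47 and the knockouts 8.27, 8.46 and 8.78. The groups were separate at each time, and the knockout medians stayed within 8.46 to 8.51. The level was 6.45-fold higher at ZT8 (log2 difference 2.69, SE 0.16, limma adjusted p 4.48e-14), 7.13-fold at ZT12 (2.83, adjusted p 1.05e-14) and 9.02-fold at ZT16 (3.17, adjusted p 5.49e-16). Genotype took 94.8% of the variance of Igfbp2 over the 36 arrays, 87.7% of that of Igfbp1, 84.0% for Igfals and 67.8% for Igf1. Without knockout ZT8 replicate 3 the ZT8 log2 differences were -0.51 for Igf1, -1.61 for Igfals, 4.10 for Igfbp1 and 2.82 for Igfbp2, and all 4 still passed.

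**Figure D2:**
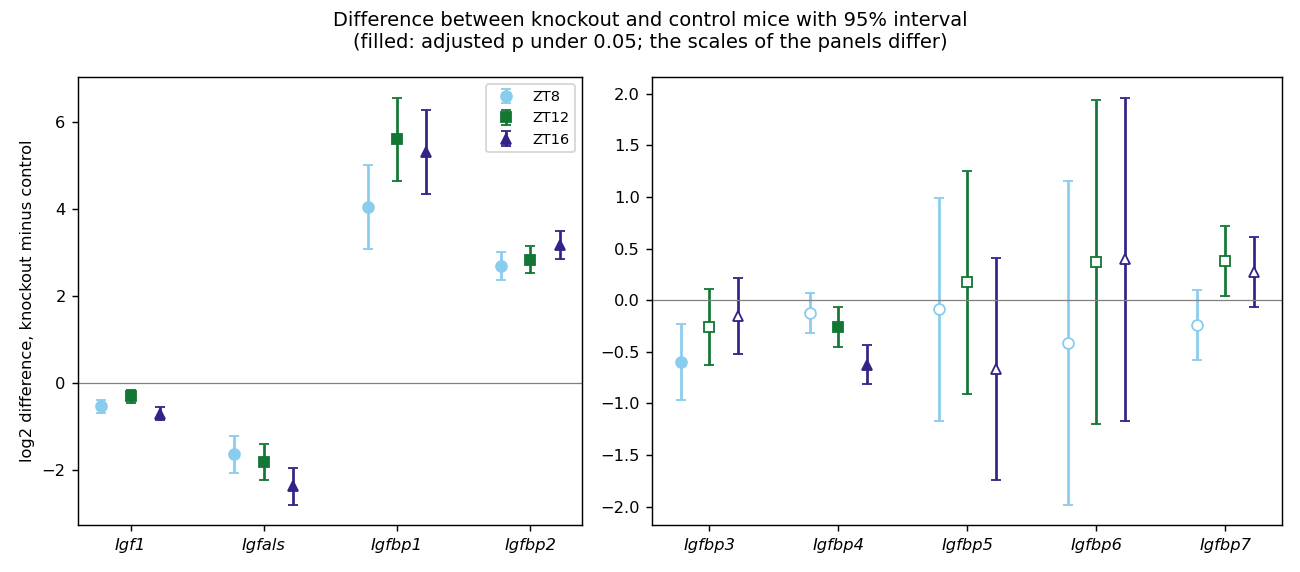
Log2 difference of knockout minus control mice (y axis) for each of the 9 genes (x axis), with a symbol and colour for each of ZT8, ZT12 and ZT16, 95% intervals from limma and filled symbols for adjusted p under 0.05 (6 mice a group). The scales of the panels differ, and Igfbp1 reaches 5.60 and Igfals -2.39 while the intervals of Igfbp5 and Igfbp6 span 0 at each time.

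Igfbp4, a binding protein that holds IGFs until the protease PAPP-A cleaves it, was lower in knockouts at ZT12 and ZT16. At ZT8 the lowest, median and highest levels were 3.24, 3.58 and 3.62 in controls and 3.01, 3.42 and 3.62 in knockouts, which overlap. At ZT12 they were 3.74, 3.91 and 4.15 in controls and 3.54, 3.64 and 3.83 in knockouts, with overlap at the edges. At ZT16 they were 3.69, 3.95 and 4.13 in controls and 3.13, 3.31 and 3.34 in knockouts, and every knockout lay below every control. The ZT8 difference of -0.12 did not pass (SE 0.094, limma adjusted p 0.323). It was -0.045 without knockout ZT8 replicate 3 (limma adjusted p 0.739). The differences at ZT12 (-0.26, adjusted p 0.0263) and ZT16 (-0.62, adjusted p 4.05e-06, 1.54-fold lower) passed. The ZT12 call was lost with quantile normalization (-0.13, adjusted p 0.236), in the authors' deposited table (-0.12, adjusted p 0.235), and without control replicate 4 (0.0884) or 5 (0.0564) or knockout replicate 1 (0.0578).

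Igfbp3, the main carrier of IGF-1 in adult serum, was lower in knockouts at ZT8. The lowest, median and highest levels there were 2.38, 2.54 and 2.83 in controls and 1.28, 2.09 and 2.56 in knockouts. Only knockout replicate 4, at 2.56, lay within the control range, and the other 5 knockouts, up to 2.19, lay below every control. At ZT12 the levels were 2.15, 2.35 and 2.54 in controls and 1.65, 2.01 and 2.72 in knockouts, and at ZT16 2.26, 2.50 and 2.94 in controls and 2.01, 2.23 and 3.24 in knockouts. The ZT8 difference was -0.60 and passed (SE 0.18, limma adjusted p 0.0105). Those of -0.26 at ZT12 and -0.15 at ZT16 did not (adjusted p 0.264 and 0.534), with 95% intervals of -0.63 to 0.11 and -0.53 to 0.22. Without knockout ZT8 replicate 3 the ZT8 difference was -0.64 (adjusted p 0.00989). Without knockout ZT8 replicate 2 it was -0.44 (adjusted p 0.0478). A second Igfbp3 probe, A_55_P1992715, was above background on 0 of 36 arrays and was not tested.

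Igfbp7, made by endothelial and stromal cells, did not pass at any time. At ZT8 the lowest, median and highest levels were 4.27, 4.69 and 4.80 in controls and 3.83, 4.29 and 5.12 in knockouts. At ZT12 they were 4.02, 4.47 and 4.74 in controls and 4.58, 4.72 and 5.21 in knockouts, and at ZT16 4.53, 4.69 and 5.17 in controls and 4.88, 5.01 and 5.20 in knockouts. Groups overlapped at each time. The difference was -0.24 (SE 0.17, limma adjusted p 0.276), 0.38 (adjusted p 0.0676) and 0.27 (adjusted p 0.196) from ZT8 to ZT16. This gene depended on single arrays. Without knockout ZT8 replicate 3, whose level of 5.12 was the highest of its group, the ZT8 difference was -0.40 and passed (adjusted p 0.0441). The ZT12 difference passed without control ZT12 replicate 2 (adjusted p 0.0477) or 3 (0.0321).

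Igfbp5, which can join the large IGF complex, and Igfbp6, which prefers IGF-2, varied several-fold between mice of one group. Igfbp5 ran from -2.09 to -0.47 in ZT8 controls and from -2.76 to 0.89 in ZT8 knockouts, with medians of -0.97 and -1.42. Its medians in controls and knockouts were -0.96 and -0.50 at ZT12 and -0.12 and -0.66 at ZT16. Igfbp6 ran from -2.22 to 1.05 in ZT8 controls and from -2.68 to 1.25 in ZT8 knockouts. Its medians in controls and knockouts were -0.27 and -0.98 at ZT8, -1.46 and -0.15 at ZT12, and -0.33 and 0.24 at ZT16. All of these groups overlapped. The Igfbp5 difference was -0.09 (SE 0.53), 0.17 and -0.67 (limma adjusted p 0.916, 0.818 and 0.332), and that of Igfbp6 was -0.41 (SE 0.77), 0.37 and 0.40 (adjusted p 0.719, 0.733 and 0.716). At ZT8 they were -0.55 and -0.93 without knockout ZT8 replicate 3 (limma adjusted p 0.425 and 0.372). The 95% intervals of Igfbp6 at ZT8 reached from -1.98 to 1.16, so a 2-fold difference either way was not excluded by these arrays. Variance left over after wash batch, genotype, time and the interaction of genotype and time was 89.2% for Igfbp6 and 81.2% for Igfbp5, against 2.61% for Igfbp2.

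Time of day was compared within each genotype. In controls 5 of the 9 genes differed between ZT16 and ZT8, where 26.6% of all genes did. Igf1 rose by 0.35 (SE 0.075, limma adjusted p 0.000598), Igfals by 0.80 (adjusted p 0.00346, 1.74-fold) and Igfbp4 by 0.39 (adjusted p 0.00227). The Igf1 rise was that of its brightest probe. The control means of the dimmer Igf1 probes went from 2.11 to 2.29 (A_55_P2085979) and from 1.27 to 0.86 (A_52_P306327). The SDs of these control groups were 0.79 to 1.28. Igfbp1 fell by 1.48 (adjusted p 0.0187, 2.79-fold lower) and Igfbp2 fell by 0.41 (adjusted p 0.0468). In knockouts only Igfbp7 differed between ZT16 and ZT8, with a rise of 0.65 (adjusted p 0.00304, 1.57-fold), where 28.9% of all genes differed. That call was lost with only the groups compared in the fit (0.65, limma adjusted p 0.0575). The knockout count of 1 was 2 with normexp background correction or without knockout ZT8 replicate 1, 4 or 5, and 3 in the authors' deposited table. The Igfbp1 call was lost without control ZT8 replicate 6 (limma adjusted p 0.0634) or control ZT16 replicate 5 (0.0604), and that of Igfbp2 without any 1 of 10 controls, all but ZT8 replicate 3 and ZT16 replicate 4 (adjusted p up to 0.140, without control ZT8 replicate 1).

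The neighbouring times were compared in the same way. From ZT8 to ZT12, Igfbp4 rose by 0.40 in controls (limma adjusted p 0.00345), 1 of 9 genes beside 14.8% of all genes. Igf1 rose by 0.34 in knockouts over the same hours (adjusted p 0.00297), again 1 of 9 beside 13.2%. With the mean of all Igf1 probes this change was -0.031 (limma adjusted p 0.975), and without knockout ZT8 replicate 3 Igfbp7 rose over these hours as well (0.59, adjusted p 0.00866). From ZT12 to ZT16 none of the 9 passed in controls, where 3.62% of all genes did, and Igf1 came nearest (0.25, adjusted p 0.0571). In knockouts Igfbp4 fell by 0.37 over those hours (adjusted p 0.00703), 1 of 9 beside 12.6% of all genes.

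Whether the genotype difference itself depended on time was tested by a moderated F test in limma. It passed for 2 of the 9 genes, Igf1 (adjusted p 0.0349) and Igfbp4 (adjusted p 0.0336), where 8.46% of all genes passed. It did not pass for Igfals (0.206), Igfbp1 (0.268), Igfbp2 (0.334) or the others (0.178 to 0.887). Both passes were those of the brightest probe of the gene. In the F test over probes the dimmer Igf1 probes did not pass (adjusted p 0.341 and 0.909). Nor did the dimmer Igfbp4 probe (adjusted p 0.113). The Igf1 difference was more negative at ZT16 than at ZT12 by 0.40 (log2 -0.40, SE 0.11, adjusted p 0.0375), the only one of the 9 genes in that comparison, beside 1.95% of all genes. The Igfbp4 difference was more negative at ZT16 than at ZT8 (-0.50, SE 0.13, adjusted p 0.0141), again 1 of 9 genes, beside 9.75% of all genes. From ZT8 to ZT12 the difference changed for 0 of the 9 genes and 1.25% of all genes, 288 in number. It changed for 1 of the 9, Igfbp7 (0.78, limma adjusted p 0.0343), and for 947 of all genes without knockout ZT8 replicate 3. Of the other single arrays left out, 6 moved the count of all genes by more than 1.5 times, to 144 (knockout ZT8 replicate 5), 159 (control ZT12 replicate 5), 175 (knockout ZT8 replicate 2), 181 (control ZT8 replicate 4), 185 (control ZT8 replicate 6) and 190 (knockout ZT12 replicate 1). The Igf1 change between ZT12 and ZT16 lost its call under 19 of 36 alternatives, 12 of them single arrays left out, and that of Igfbp4 between ZT8 and ZT16 under 0 of 36. The F test of Igf1 was lost without any 1 of 9 arrays, which were control ZT12 replicates 5 and 6, control ZT16 replicates 1, 5 and 6, knockout ZT12 replicates 5 and 6, and knockout ZT16 replicates 2 and 3 (adjusted p up to 0.0667). That of Igfbp4 was lost without any 1 of 9, which were control ZT16 replicates 1, 3, 4 and 6, knockout ZT8 replicates 4 and 5, and knockout ZT16 replicates 1, 2 and 6 (adjusted p up to 0.0774). Without knockout ZT8 replicate 3, Igfbp7 passed the F test as well (adjusted p 0.0229), and its difference was more positive at ZT16 than at ZT8 (0.69, adjusted p 0.0289).

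Igf1 and Igfbp4 were each read by more than 1 probe, and the probes did not give the same values. The brightest Igf1 probe had an SD of 0.071 to 0.22 within groups. The next, A_55_P2085979 at chr10:87378456-87378515 (+, mm9), begins with the 30 bases below and had differences of 0.44, -0.48 and -0.996 at ZT8, ZT12 and ZT16 (SE 0.45, limma adjusted p over probes 0.488, 0.418 and 0.0797). The third, A_52_P306327 at chr10:87325382-87325441 (+, mm9), had -0.44, -0.92 and -1.15 (SE 0.68, adjusted p 0.667, 0.302 and 0.189). So 1 of 3 Igf1 probes passed at each time, beside 33.7%, 39.3% and 37.9% of all probes. Without knockout ZT16 replicate 6 all 3 passed at ZT16, the dimmer 2 with -1.27 (limma adjusted p 0.0246) and -1.68 (0.0408). Probe A_55_P2085979 also passed there without control ZT16 replicate 4 (-1.18, adjusted p 0.0463) and with array weights (-1.05, adjusted p 0.0434). With the mean of the 3 probes in place of the brightest, Igf1 passed at ZT16 only, and gave -0.18 at ZT8 (adjusted p 0.733) and -0.57 at ZT12 (adjusted p 0.201).

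Igf1 A_55_P2085979, first 30 bases: aaccattaaaaacatgccaccaagaccttc

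Igf1 A_52_P306327, first 30 bases: taaaatagttgagtaaaatttgccactgat

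The brightest Igfbp4 probe, A_52_P257502, lies at chr11:98913334-98913393 (+, mm9), and the other, A_51_P398971, at chr11:98909591-98909650 (+). The dimmer probe, shown whole below, had differences of 0.12, -0.19 and -0.32 (SE 0.10, limma adjusted p over probes 0.382, 0.130 and 0.0126). Its ZT16 call was lost without control ZT16 replicate 6 (-0.25, limma adjusted p 0.0546). Both Igfbp4 probes were lower at ZT16, by -0.62 and -0.32, and only the brighter one passed at ZT12. The second Igfbp5 probe, A_66_P101782, was above background on 27 arrays and had differences of -0.27, 0.50 and -0.59, of which none passed.

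Igfbp4 A_51_P398971: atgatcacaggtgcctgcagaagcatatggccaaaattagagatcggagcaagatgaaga

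**Figure D3:**
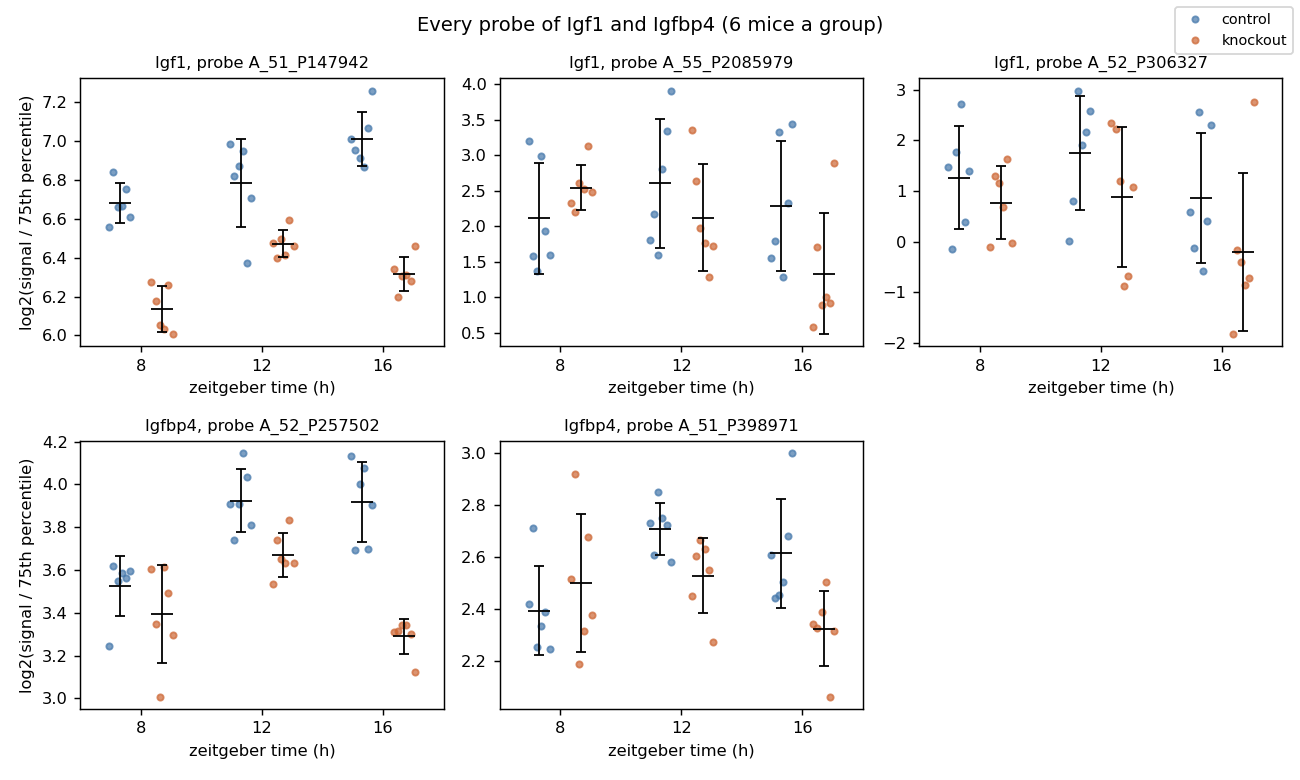
Level on each array (y axis, log2 relative to the array's 75th percentile) of the 3 Igf1 probes and the 2 Igfbp4 probes against zeitgeber time in hours (x axis), with 6 control and 6 knockout mice at each time and black bars for mean and SD. The brightest Igf1 probe separates the genotypes at ZT8 and ZT16, while the 2 dimmer Igf1 probes spread over more than 1 log2 unit within most groups.

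The 9 genes were also set against each other over the 36 arrays, as a description in which genotype dominates. Igfals correlated with Igfbp2 at -0.94 and with Igf1 at 0.89, and Igfbp1 with Igfbp2 at 0.92. Igfbp4 correlated with Igf1 and with Igfals at 0.72. Igfbp5, Igfbp6 and Igfbp7 correlated with Igf1 at 0.26, -0.0051 and -0.0037.

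The liver holds several cell types, and in bulk RNA fewer cells of a type and less RNA per cell cannot be told apart. Markers of 7 cell types were therefore read on the same arrays. Hepatocyte markers, summed on the linear scale relative to the 75th percentile, ranged from 3630 to 4290 in ZT8 controls and 2861 to 3943 in ZT8 knockouts, from 4034 to 4487 against 3134 to 4035 at ZT12, and from 4179 to 4968 against 3439 to 3845 at ZT16. Of the 8 hepatocyte markers 2 were lower at ZT8, 3 were lower and 2 higher at ZT12, and 3 were lower at ZT16. The share of all genes that passed in either direction was 35.4%, 42.2% and 39.9% at these times. These shares stand beside the counts of every marker list. Of 8 sinusoidal endothelial markers 0, 7 and 6 were higher in knockouts at the 3 times, with sums of 35.6 to 44.5 against 34.8 to 47.7 at ZT8, 32.7 to 41.4 against 43.2 to 60.8 at ZT12, and 35.7 to 52.6 against 47.0 to 58.1 at ZT16. Of 9 stellate cell and fibroblast markers 1, 5 and 5 were higher, with sums of 46.7 to 66.1 in controls against 42.3 to 108.9 in knockouts at ZT8, 38.0 to 67.2 against 71.9 to 83.2 at ZT12, and 49.5 to 85.6 against 71.5 to 97.2 at ZT16. Of 8 Kupffer cell markers 2, 5 and 3 were higher. Their sums ranged from 46.6 to 113 in controls and 67.4 to 285 in knockouts at ZT8. They ranged from 38.0 to 121 against 86.5 to 246 at ZT12, and from 45.4 to 161 against 97.2 to 324 at ZT16. The groups overlapped at each time. In this sum Marco had the highest log2 level, and ran from 2.11 to 7.36 over the arrays. Cd5l came next and ran from 3.94 to 6.54. Of 4 lymphocyte markers tested 2 were higher at ZT8, 3 higher and 1 lower at ZT12, and 3 higher at ZT16. The sums of the 5 lymphocyte markers listed ranged from 2.29 to 2.81 in controls and 2.47 to 3.77 in knockouts at ZT8. At ZT12 they ranged from 1.93 to 3.37 against 1.93 to 3.29, and at ZT16 from 1.90 to 2.77 against 2.01 to 3.23. These sums overlapped at each time. The ZT8 counts without knockout ZT8 replicate 3 were 2 lower for hepatocytes, 0 for endothelium, 1 higher and 1 lower for stellate cells, 1 higher for Kupffer cells and 2 higher for lymphocytes. Of all 23054 genes, 4212 were then higher and 4093 lower. The part of these cell types in the results of the 9 genes was not tested.

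Within groups, some of the binding proteins followed the summed levels of markers listed for cells other than hepatocytes. With group and wash batch means removed, the correlation over 36 arrays of Igfbp6 with the sum of the 4 mesothelial markers was 0.964, and that of Igfbp5 was 0.912. Mesothelial cells cover the liver surface. Their markers passed in 0 of 4 cases at each time, and their sums ranged from 0.318 to 2.26 in ZT8 controls and 0.239 to 4.62 in ZT8 knockouts, from 0.530 to 2.37 against 0.216 to 2.94 at ZT12, and from 0.518 to 3.05 against 0.528 to 3.79 at ZT16. Msln, which encodes the surface protein mesothelin, was above background on 36 arrays, Wt1 on 34, Gpm6a on 31 and Upk3b on 19. The sums add linear levels, so the brightest marker weighs most. In the mesothelial sum this was Msln, with a highest log2 level of 1.81, where Wt1 came next at -0.74. Igfbp7 correlated with the stellate sum at 0.792 and the endothelial sum at 0.723, and Igfbp3 with the sum of the 6 bile duct markers at 0.786. Spp1 weighed most in the bile duct sum, with a highest log2 level of 3.64, where Sox9 came next at 0.37. On knockout ZT8 replicate 2 only 2 of these 6 markers were above background. In the stellate sum Dcn weighed most, with a highest level of 6.45, where Col3a1 came next at 2.91. Bile duct sums ranged from 5.36 to 7.79 in ZT8 controls and 2.03 to 11.7 in ZT8 knockouts. They ranged from 4.71 to 13.2 against 3.56 to 7.21 at ZT12, and from 4.22 to 7.91 against 3.94 to 9.20 at ZT16. Of these markers 0 passed at ZT8, 1 at ZT12, which was lower, and 1 at ZT16, which was higher. Without knockout ZT8 replicate 3, 1 was lower at ZT8. The 5 correlations given above were those over 0.7 among 63 pairs, and all points share array and scaling. Without the 2 arrays farthest from the median of the marker sum they were 0.963, 0.886, 0.680, 0.663 and 0.691 for Igfbp6, Igfbp5, Igfbp7 with stellate and endothelial markers, and Igfbp3.

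**Figure D4:**
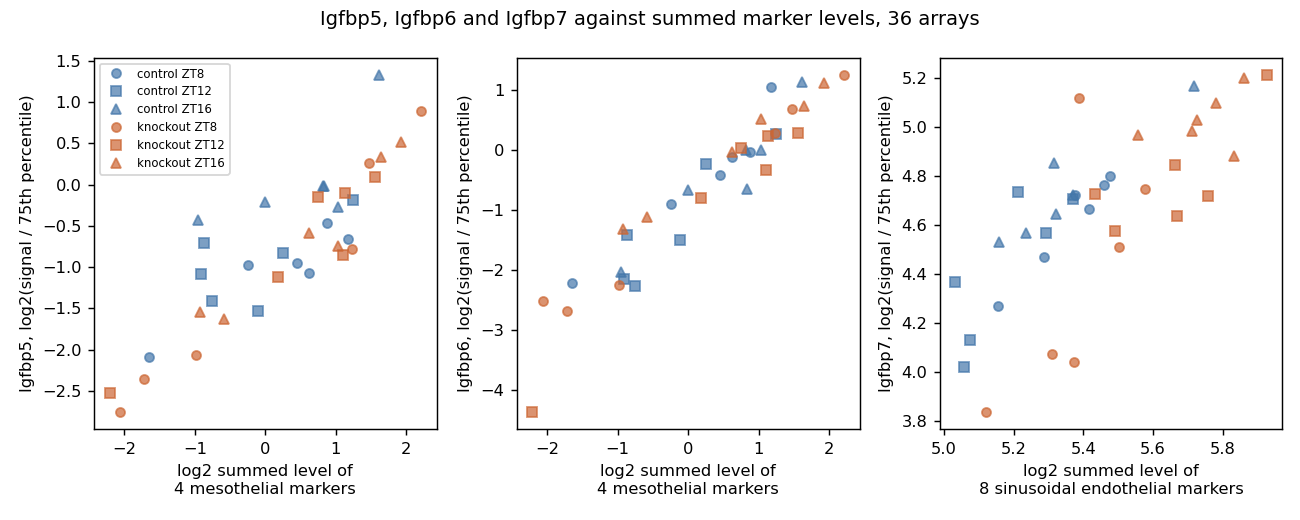
Levels of Igfbp5, Igfbp6 and Igfbp7 (y axis, log2 relative to the array's 75th percentile) against the summed level of a cell type's markers on the same array (x axis, log2), with 36 arrays coloured by genotype and shaped by time, mesothelial markers for Igfbp5 and Igfbp6 and sinusoidal endothelial markers for Igfbp7. Igfbp6 and Igfbp5 rise along the mesothelial sum in control and knockout mice alike, with within-group correlations of 0.964 and 0.912.

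Genes that act with the 9 in the IGF and growth hormone pathway were described from a list of 31, of which 24 were tested. Of these, 10 passed at ZT8 (5 higher and 5 lower in knockouts), 12 at ZT12 (7 and 5) and 12 at ZT16 (8 and 4), beside 35.4%, 42.2% and 39.9% of all genes. Their median differences were 0.099, 0.095 and 0.070, beside 0.0070, -0.017 and 0.0029 for all genes. The 8 higher at ZT16 include Pappa, described below, which met the filter on dim probes only with its knockout arrays. At ZT8 5 of the 24 were higher and 6 lower without knockout ZT8 replicate 3. Igf2, Pappa2, Stc1, Stc2, Ccn3 and Ccn5 were too dim to test, and Ccn1 lacked a value on an array. Among ligands, receptors and adaptors, Igf2r, the receptor that clears IGF-2, was lower at each time (-0.31, -0.65 and -0.26; limma adjusted p 0.00206, 6.3e-08 and 0.00705). Igf1r, which encodes the IGF-1 receptor, was higher at ZT12 and ZT16 (0.59 and 0.45, adjusted p 0.000626 and 0.00784). Both receptors were named after their values had been seen.

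Irs2, an adaptor of the insulin and IGF-1 receptors, was the most raised of that group. Its lowest, median and highest levels were 1.68, 2.37 and 2.64 in ZT8 controls and 3.65, 4.75 and 5.02 in ZT8 knockouts, 0.32, 0.76 and 0.98 against 3.90, 4.26 and 5.25 at ZT12, and 0.43, 1.22 and 2.68 against 4.12, 4.55 and 4.83 at ZT16. The groups did not overlap at any time. The differences were 2.30, 3.65 and 3.14 (SE 0.29, limma adjusted p 3.31e-07, 4.17e-11 and 7.27e-10).

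Ghr, the growth hormone receptor through which the liver is driven to make IGF-1, was lower in every knockout than in any control. Its lowest, median and highest levels were 5.57, 5.78 and 5.89 in ZT8 controls and 3.89, 4.11 and 4.41 in ZT8 knockouts, 5.76, 5.92 and 6.02 against 4.25, 4.39 and 4.55 at ZT12, and 5.79, 5.83 and 5.88 against 4.15, 4.31 and 4.43 at ZT16. The differences were -1.63, -1.54 and -1.53 (SE 0.073, limma adjusted p 2.13e-16, 3.46e-16 and 4.43e-16), or 3.09-, 2.90- and 2.89-fold lower.

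Socs2, which encodes an inhibitor of growth hormone signalling that growth hormone itself induces, was higher. Its lowest, median and highest levels were -1.38, 0.10 and 1.101 in ZT8 controls and 2.10, 3.06 and 3.59 in ZT8 knockouts, -0.93, 1.05 and 2.44 against 3.34, 4.00 and 4.83 at ZT12, and -1.14, 0.85 and 1.24 against 1.20, 2.01 and 3.38 at ZT16. The groups were separate at ZT8 and ZT12 and touched at ZT16. The differences were 3.13, 2.93 and 1.497 (SE 0.47, limma adjusted p 4.98e-06, 9.87e-06 and 0.0122). The ZT8 differences without knockout ZT8 replicate 3 were 2.53 for Irs2, -1.58 for Ghr, 3.20 for Socs2, -0.28 for Igf2r and -1.67 for Insr, and all 5 passed. Of the 7 genes of growth hormone signalling 3, 5 and 4 passed, beside the same shares of all genes (35.4%, 42.2% and 39.9%), and Ghr was the only one of them that was lower. The probe of Pappa, which encodes the protease that cleaves IGFBP-4, passed at ZT16. From ZT8 to ZT16 it was well above background on 1, 0 and 1 of 6 control arrays. Of the 6 knockout arrays at each time, 2, 5 and 5 were above. Without the knockout arrays the probe would not have met the filter of 6 arrays, so its pass is not read as a result. No fold is given for it, and it was named after its value was seen.

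**Figure D5:**
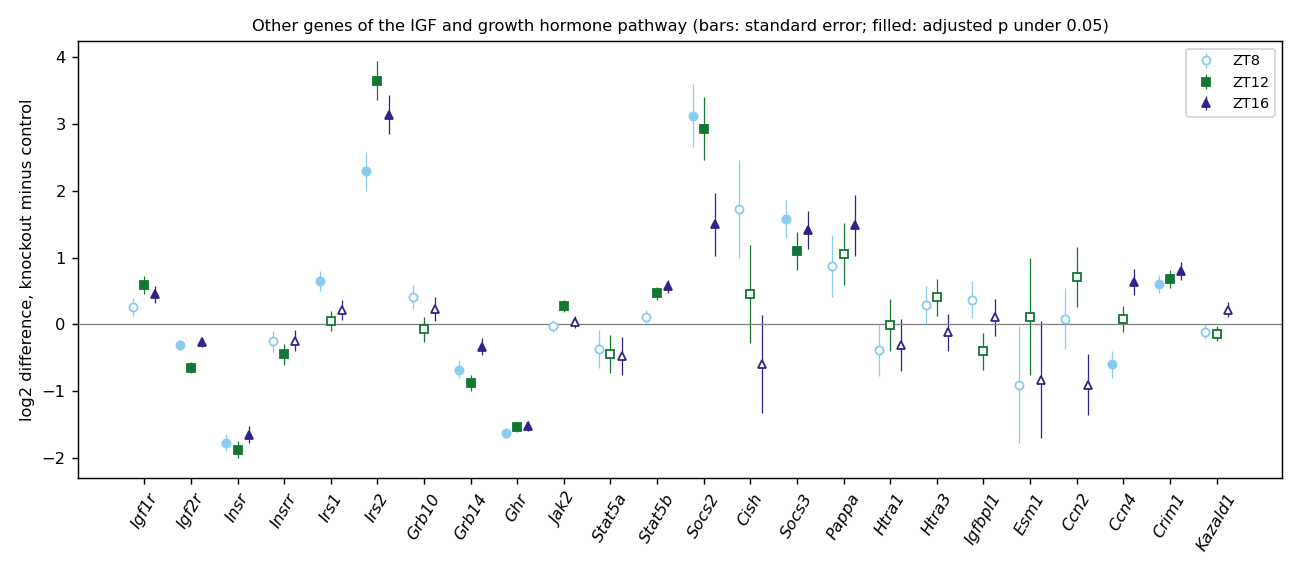
Log2 difference of knockout minus control mice (y axis) for the 24 tested genes of the IGF and growth hormone pathway list (x axis), with a symbol and colour for each of ZT8, ZT12 and ZT16, standard errors as bars and filled symbols for adjusted p under 0.05 (6 mice a group). Irs2 and Socs2 lie highest, up to 3.65 and 3.13, and Insr and Ghr lowest, down to -1.88 and -1.63.

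The genes whose levels followed each of the 9 most closely were found by Pearson correlation over the 36 arrays, with wash batch means removed, among 17890 genes above background on every array. For Igf1 they were Ndufs8 (0.903), Gchfr (0.902) and Clcn2 (0.900). For Igfals they were Thrsp (0.956), a regulator of lipid synthesis, Nat8 (0.941) and B2m (0.940). For Igfbp1 they were Ppargc1a (0.942), a coactivator of gluconeogenic genes, Sorbs3 (0.942) and Prr36 (0.934). For Igfbp2 they were Tango6 (0.997), Il17rb (0.976) and Gpx3 (0.972). The points share genotype, which took most of the variance of these 4 members. For Igfbp3 they were Esrrb (0.774), Pdgfa (0.745) and Arhgap44 (0.706), and for Igfbp4 Polr2b (0.912), Zdhhc5 (0.861) and Gm31105 (0.858). For Igfbp5 they were Myl7 (0.875), Msln (0.864) and Ezr (0.850), and for Igfbp6 Msln (0.950), Rspo1 (0.933) and Nbl1 (0.933). For Igfbp7 they were Eng (0.920), which encodes the endothelial protein endoglin, C1qtnf1 (0.905) and Prelp (0.894). Other probes of these genes followed Igfbp7 less. A second Eng probe, above background on 34 arrays, correlated with it at 0.063. The other C1qtnf1 probe had 0.689, and the other Prelp probes 0.582 and 0.578. Which of these probes reads the named transcript was not tested.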

How the data were processed

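The data were liver RNA profiles of 36 mice on 1-colour Agilent SurePrint G3 mouse arrays, as deposited. The scanner files hold intensity values per spot, background-subtracted, from Agilent Feature Extraction 10.10.1.1 per the submitters' processing notes and the file headers. Flags and other spot columns deposited with them (above background, saturated, outlier) were used as given. The authors' deposited log2 table of 32801 probes had identical sorted columns, hence quantile normalization. Limma is named in the submitters' processing notes, and other steps are not given in the sources used here. That table served as an alternative.

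Processed signals were log2 transformed and the 75th percentile of non-control spots of each array was subtracted. Outlier spots were left out and spots of a probe averaged. Probes well above background on at least 6 of 36 arrays were kept (34769), and 91 without a value on some array dropped. A gene was its brightest probe, named by RefSeq symbol through the accession where one matched (32994 probes), otherwise as in the file. R 4.3.3 with limma 3.58.1 fitted 6 group means with wash batch (3 batches, 11 to 13 arrays each) over 23054 genes, with Benjamini-Hochberg adjustment at 0.05, and the fit was tested on simulated data. P-values measure the spread between mice as labelled. Their number limits the precision.

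The genes named were the 9 members, Insr, the 2 most raised and 2 most lowered pathway genes of each genotype comparison, and for each member the 3 genes most correlated with it. The members and lists were chosen with earlier results of these data known. Alternatives covered background correction, normalization, scaling, filter, probe choice, wash batch, slide (9 slides), replicate number, array weights, the groups in the fit and single arrays left out.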

Additional observations from a re-analysis of the deposited data

Results flagged for a closer look

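Single arrays far from the other 5 of their group by Dixon's test were found in 7 of 54 groups of the 9 genes, where chance gives about 1 in 20, or 2.7. They were Igfbp2 in knockout ZT12 replicate 6 (7.90), Igfbp3 in knockout ZT16 replicate 6 (3.24), Igfbp4 in control ZT8 replicate 1 (3.24) and in knockout ZT16 replicate 6 (3.13), Igfbp5 in control ZT8 replicate 5 (-2.09) and in control ZT16 replicate 6 (1.33), and Igfbp6 in knockout ZT12 replicate 1 (-4.37). Knockout ZT16 replicate 6 was the lowest of its group for Igfbp4 and the highest for Igfbp3.

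The genotype difference of the brightest probe varied with time for Igf1 (limma F test, adjusted p 0.0349) and for Igfbp4 (adjusted p 0.0336). For Igf1 it was lower at ZT16 than at ZT12 (-0.40), and for Igfbp4 lower at ZT16 than at ZT8 (-0.50). The F test did not pass for the dimmer probes of either gene.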

How the results depend on the processing

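The genotype counts stayed within 1.5 times the 5 of 9 reported, between 4 and 6 at ZT8 and ZT12 and 5 and 6 at ZT16. The count of genes whose genotype difference varied with time, 2 as reported, was 1 with normexp background correction, quantile normalization, median scaling, the mean of all probes, no wash batch term or the replicate block, 0 with no filter or with slide as a fixed effect, and 4 with array weights, and it ranged from 0 to 3 with single arrays left out. The cause was not tested. The ZT16 minus ZT8 count in controls (5 as reported) was 3 with the mean of all probes and 3 to 5 with single arrays left out. In knockouts (1 as reported) it was 2 with normexp, 3 in the authors' deposited table, 0 with only the groups compared, and 1 to 2 with single arrays left out. The Igf1 rise from ZT8 to ZT12 in knockouts lost its call with the mean of all probes, where the change was -0.031 (limma adjusted p 0.975). For all genes the F test count of 1951 became 1154 with median scaling, 1274 with no filter, 3711 with array weights and 3006 without knockout ZT8 replicate 3. No pairing of mice by replicate number was seen. Same-numbered deviations correlated at -0.22 to 0.105, and in 3 of 18 pairs a mouse correlated best with its own number. Whether mice were paired by design cannot be read from these values. With the replicate block the genotype counts were 5 at each time. With only the groups compared no F test could be fitted. Precision rests on 6 mice a group and was lowest for Igfbp6 (SE 0.77).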

Other observations

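Tango6, the gene closest to Igfbp2 in pattern, was read by 2 probes that differed. Probe A_66_P110109 correlated with Igfbp2 at 0.997 and was higher in knockouts by 3.05, 3.29 and 3.59 on the log2 scale at ZT8, ZT12 and ZT16 (limma adjusted p over probes 3.01e-13, 4.74e-14 and 5.2e-15). Its lowest knockout at ZT16 had 4.21 and its highest control 1.05. Probe A_66_P119298, above background on all 36 arrays, correlated with Igfbp2 at 0.0373 and had differences of -0.071, 0.039 and 0.071 (adjusted p 0.649, 0.800 and 0.634). The B2m probe that followed Igfals (0.940) likewise had a partner at 0.0183. Which probe reads the named transcript was not tested.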
